A study of Mus musculus with 9 samples.

Results

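The genes examined encode components of the complement system and a receptor for one of its fragments, and were C1qa, C1qb, C1qc, C2, C4b, C3, Cfb, Cfp and C3ar1. They were chosen by name, as every array probe that carried one of these symbols, which gave 9 genes and 11 probes among 30869 symbols and 45281 probes on the array. C4b had 3 probes and each of the others had 1. A probe was tested where it was detected on at least 3 of the 9 arrays, which held for 8 of the 9 genes and for 20573 probes overall. C3ar1 was the gene that did not pass.

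Complement is a cascade of plasma and cell surface proteins that marks targets for clearance and drives inflammation. In the classical pathway the C1q molecule, built from A, B and C chains, binds its target and leads to cleavage of C4 and C2, which together form an enzyme that splits C3. In the alternative pathway factor B takes the place of C2, and properdin stabilises the enzyme it forms with C3 fragments. Hepatocytes are the main source of most plasma components, whereas C1q and properdin are known chiefly as products of macrophages and other myeloid cells.

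Levels were measured in 9 samples of sorted cells, with 1 Illumina bead array per sample. The study names these cells activated hepatic stellate cells (aHSCs), the scar-forming cells of the injured liver. By the labels all cells came from male C57/Bl6 mice of genotype WT1GFP/+, although the study's methods name both sexes for its in vitro work. In these mice green fluorescent protein (GFP) reports activity of the WT1 locus. The WT1-high and WT1-intermediate groups were GFP high and GFP low cells sorted from livers after repeated carbon tetrachloride (CCl4) injury, with 3 arrays each, and the WT1-negative group was 3 arrays of GFP negative cells, which had been activated in vitro for 7 days before the sort. By the study's methods, the cells for culture came from uninjured livers. Replicates carry the numbers of the labels, which are 1, 8 and 29 for WT1-high, 1, 8 and 30 for WT1-intermediate, and 3, 11 and 14 for WT1-negative.

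WT1 status, origin and injury run together in this design, since every WT1-negative array came from culture of uninjured liver cells and every other array from injured liver. They cannot be told apart in any comparison with the WT1-negative group. The arrays of each origin were also deposited as separate tables, and biotin staining control spots read 4322 to 5006 on the in vivo arrays and 2631 to 3449 on the in vitro arrays. Array processing and origin cannot be told apart either. The cells were isolated by density centrifugation before sorting, and the GFP gate selects on the reporter alone. In bulk samples of this kind, fewer cells of a type and less RNA per cell cannot be told apart.

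Between 38.1% and 43.7% of probes were detected per array, and the mean signal lay between 147 and 289. Of the 13 hepatic stellate cell markers examined, 9 were tested. Dcn, Ecm1, Cygb, Des, Pdgfrb and Reln were detected on all arrays, and Dcn, a matrix proteoglycan, had mean log2 levels of 13.21 and 13.53 in the in vivo groups and 10.95 in culture. Lrat was detected on 1 array and Gfap, Rgs5 and Vipr1 on none. Between the in vivo groups Des was called higher in WT1-high cells (means 8.12 and 6.73), and Pdgfrb (5.02 and 6.30) and Hgf (4.55 and 5.71) were called lower.

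The probes that carry the results are printed 5′ to 3′, to show which stretch each signal was read from. The first 3 lines are the C1q chains and the next lines are C3 and factor B.
C1qa: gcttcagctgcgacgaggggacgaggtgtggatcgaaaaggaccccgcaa
C1qb: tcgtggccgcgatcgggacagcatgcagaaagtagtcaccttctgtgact
C1qc: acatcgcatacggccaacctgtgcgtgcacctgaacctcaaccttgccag
C3: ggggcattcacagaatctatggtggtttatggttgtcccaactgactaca
Cfb: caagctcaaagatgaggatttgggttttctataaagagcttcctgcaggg
None of these shared a run of 16 or more bases with any other probe of the array, so the 3 C1q signals were read by unlike sequences.

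C4b has a near-identical neighbour, C4a, and its 3 probes are shown for that reason. Capitals mark the longest run shared with another probe.
C4b, probe A: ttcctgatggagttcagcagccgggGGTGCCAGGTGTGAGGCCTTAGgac
C4b, probe B: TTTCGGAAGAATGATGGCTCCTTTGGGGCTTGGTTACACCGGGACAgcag
C4b, probe C: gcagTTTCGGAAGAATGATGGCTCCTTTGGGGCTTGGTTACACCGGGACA
Probes B and C overlap by 46 bases and so read 1 site. Probe A, the brightest, shares 22 bases with a probe for Rhot2. No C4b probe shared a run of 16 or more bases with a C4a probe, but whether any of them also binds C4a transcripts was not tested, so the C4b values are uncertain as to which copy they measure.

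The 8 tested genes fell into 2 opposite patterns. C1qa, C1qb, C1qc and Cfp were lowest in WT1-high cells, higher in WT1-intermediate cells and highest in WT1-negative cells. C2, C4b, C3 and Cfb were at like levels in the WT1-high and WT1-intermediate groups and far lower in WT1-negative cells. Between WT1-high and WT1-intermediate aHSCs, 4 of the 8 tested genes were called lower, 0 higher (also 0 at an unadjusted p under 0.05) and 4 not called, where a call is a limma Benjamini-Hochberg adjusted p under 0.05 over all probes. Of 14659 genes tested, each by its brightest probe, 3.83% were called in that comparison, 2.87% as lower and 0.962% as higher. Against WT1-negative cells, 4 were called higher and 4 lower from both in vivo groups, so a call there is common among all genes: for WT1-high cells 59.8% of genes were called, 27.6% as higher and 32.1% as lower, and for WT1-intermediate cells 57.9%, 25.9% and 32%. The arrays of 2 groups did not overlap for 20.5% of genes between the in vivo groups, for 68.7% between WT1-high and WT1-negative cells and for 65.7% between WT1-intermediate and WT1-negative cells. The 2 comparisons share the WT1-negative arrays.

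**Figure D1:**
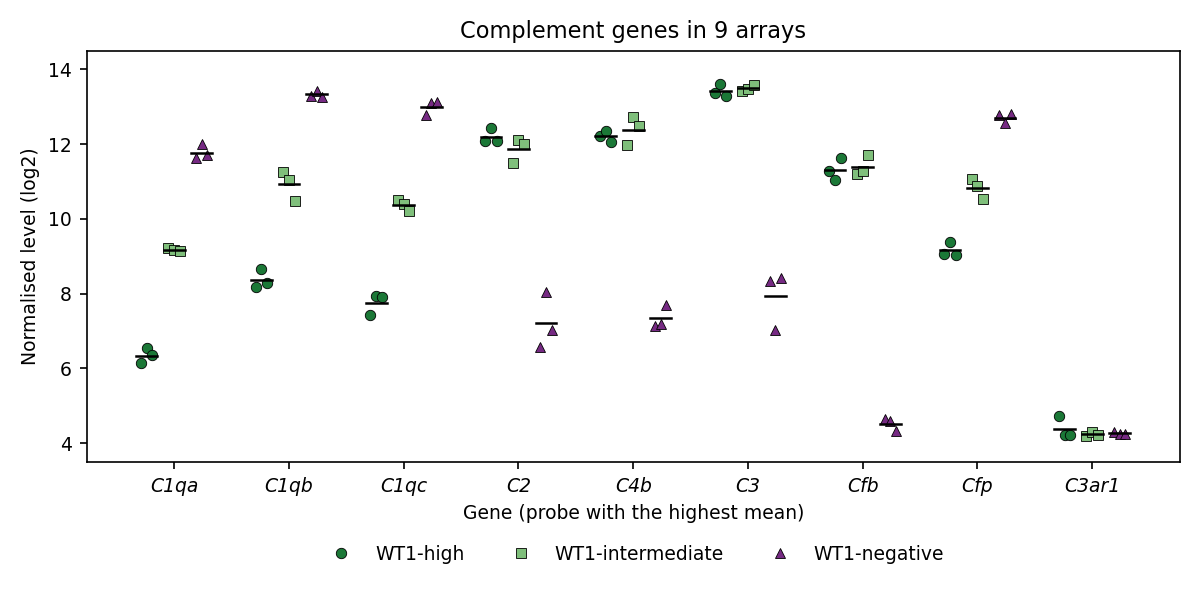
Normalised log2 level of each complement gene (vertical axis) on every array, with circles for WT1-high, squares for WT1-intermediate, triangles for WT1-negative and a bar at the mean of each group of 3 arrays. C1qa, C1qb, C1qc and Cfp step up from WT1-high to WT1-negative, C2, C4b, C3 and Cfb drop in WT1-negative, and C3ar1 lies near 4.2 to 4.7 on all arrays.

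C1qa, the A chain of C1q, had log2 levels of 6.14, 6.54 and 6.35 in WT1-high cells, 9.22, 9.17 and 9.14 in WT1-intermediate cells, and 11.63, 12.00 and 11.70 in WT1-negative cells. The 3 groups did not overlap, and the WT1-intermediate mean was 9.17 ± 0.04 (SD, n = 3). The WT1-high mean was 7.12-fold lower than the WT1-intermediate mean, a log2 difference of -2.83 (SE 0.16, limma Benjamini-Hochberg adjusted p = 7.3e-06). Against WT1-negative cells it was 43.3-fold lower (limma adjusted p = 8.7e-10), and the WT1-intermediate mean was 6.08-fold lower (limma adjusted p = 2.3e-07).

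C1qb, the B chain, followed the same order with log2 levels of 8.19, 8.65 and 8.29 in WT1-high cells, 11.25, 11.05 and 10.49 in WT1-intermediate cells, and 13.30, 13.42 and 13.27 in WT1-negative cells. No array of one group reached another group. WT1-high cells were 5.86-fold below WT1-intermediate cells (log2 difference -2.55, SE 0.20, limma adjusted p = 0.00011). The WT1-high level was 31.0-fold below WT1-negative cells (limma adjusted p = 1e-08).

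C1qc, the C chain, had log2 levels of 7.43, 7.93 and 7.90 in WT1-high cells, 10.51, 10.40 and 10.22 in WT1-intermediate cells, and 12.79, 13.11 and 13.12 in WT1-negative cells. Again the groups were separate. WT1-high cells were 6.15-fold below WT1-intermediate cells (log2 difference -2.62, SE 0.18, limma adjusted p = 4.5e-05) and 38.1-fold below WT1-negative cells (limma adjusted p = 2.6e-09). The intervals of the 3 chains for WT1-high against WT1-intermediate overlapped, from -3.18 to -2.48 for C1qa, -3.00 to -2.10 for C1qb and -3.01 to -2.23 for C1qc. On the gene order of GRCm38.p6, C1qb, C1qc and C1qa are consecutive coding genes of chromosome 4.

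The arrays with like replicate numbers gave the same direction for each chain. From the pair numbered 1 to the pair numbered 8 and the pair numbered 29 and 30, the log2 difference of C1qa was -3.08, -2.63 and -2.79. It was -3.06, -2.40 and -2.19 for C1qb and -3.08, -2.47 and -2.32 for C1qc. Pair 1 held the largest fall for all 3 chains.

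Cfp encodes properdin, which prolongs the life of the alternative pathway convertase, and its gene lies on chromosome X. Its log2 levels were 9.07, 9.38 and 9.04 in WT1-high cells, 11.07, 10.88 and 10.54 in WT1-intermediate cells, and 12.77, 12.56 and 12.80 in WT1-negative cells. The order of the groups was that of the C1q chains, with no overlap. WT1-high cells were 3.18-fold below WT1-intermediate cells (log2 difference -1.67, SE 0.17, limma adjusted p = 0.00067) and 11.7-fold below WT1-negative cells (limma adjusted p = 3.6e-08). The first of these calls was lost when arrays were scaled by the median of all gene probes in place of quantile normalisation, where the log2 difference was -1.03 and the limma adjusted p 0.055. With the median taken over the tested probes, a setting added after that loss was seen, it was -1.52 with a limma adjusted p of 0.0013.

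Markers of macrophages moved with these 4 genes between the in vivo groups. Of 20 listed macrophage markers, 19 were tested, all 19 had a lower mean in the WT1-high group and 13 were called lower, with a median log2 difference of -1.56 beside 0.04 over all genes tested. Adgre1, a surface receptor of tissue macrophages, had means of 7.81 and 9.95, and Cd68, a lysosomal protein of macrophages, had 7.80 and 9.91. The summed level of the list ran from 9344 to 14750 in WT1-high cells, 23499 to 40655 in WT1-intermediate cells and 56085 to 57950 in WT1-negative cells, and that of the C1q chains from 534 to 738, 3187 to 4482 and 20316 to 23901. The median log2 difference of the list within pairs was -1.79, -1.38 and -1.38, and its largest fall was -2.14 for Adgre1. The part of these markers in the fall of C1q and Cfp was not tested.

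Endothelial markers were also lower in mean for 10 of 11 genes in WT1-high cells, with a median log2 difference of -0.69. Stab2, Tek and Eng were the 3 called lower. The endothelial sum was 1218 to 1622 in WT1-high, 2129 to 2461 in WT1-intermediate and 1395 to 1852 in WT1-negative cells, and the part of these markers was likewise not tested.

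Against WT1-negative cells the macrophage markers split in the WT1-intermediate group, where 5 were called higher and 6 lower (median log2 difference -0.33). From the WT1-high group 2 were called higher and 13 lower (median -1.80). Over all genes 25.9% were called higher and 32% lower from WT1-intermediate cells, and 27.6% and 32.1% from WT1-high cells. Mrc1, the mannose receptor, rose from a mean of 7.57 in WT1-intermediate cells to 12.17 in WT1-negative cells, as did Fcgr3, an Fc receptor, from 8.63 to 11.54. Clec4f and Timd4, markers of resident liver macrophages, had WT1-intermediate means of 6.92 and 6.29 and were detected on no WT1-negative array. Msr1 was detected on no array at all.

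C2 is the protease of the classical pathway convertase. Its log2 levels were 12.09, 12.43 and 12.08 in WT1-high cells, 11.51, 12.12 and 12.01 in WT1-intermediate cells, and 6.57, 8.05 and 7.04 in WT1-negative cells. The in vivo groups overlapped, and both were clear of the WT1-negative arrays, which spread over more than 1 log2 unit. The difference between the in vivo groups was 0.32 with an interval from -0.38 to 1.02 (limma adjusted p = 0.67). WT1-high cells were 31.5-fold above WT1-negative cells (limma adjusted p = 2.6e-07) and WT1-intermediate cells 25.3-fold above (limma adjusted p = 5.6e-07).

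C4b encodes C4, the partner of C2. Its brightest probe, A, read 12.21, 12.36 and 12.06 in WT1-high cells, 11.98, 12.72 and 12.48 in WT1-intermediate cells, and 7.14, 7.20 and 7.71 in WT1-negative cells. The in vivo groups overlapped, with a log2 difference of -0.19 and an interval from -0.66 to 0.29 (limma adjusted p = 0.71). The excess over WT1-negative cells was 29.0-fold for WT1-high (limma adjusted p = 1.8e-08) and 33.0-fold for WT1-intermediate cells (limma adjusted p = 1.9e-08). The other 2 C4b probes ran the same way with smaller log2 differences of 3.90 and 3.77 for WT1-high cells, and were detected on 2 of 3 WT1-negative arrays. The Rhot2 probe that shares 22 bases with probe A had a mean of 5.86 in both in vivo groups.

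C3, the protein on which all pathways meet, had log2 levels of 13.38, 13.61 and 13.30 in WT1-high cells, 13.42, 13.49 and 13.58 in WT1-intermediate cells, and 8.35, 7.04 and 8.42 in WT1-negative cells. The in vivo arrays overlapped and WT1-negative replicate 11 was the lowest array. The in vivo groups differed by -0.07 on the log2 scale, with an interval from -0.73 to 0.60 (limma adjusted p = 0.94). C3 was 45.1-fold higher in WT1-high than in WT1-negative cells (log2 difference 5.50, SE 0.30, limma adjusted p = 8.3e-08), and 47.2-fold higher in WT1-intermediate cells (limma adjusted p = 9.8e-08).

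Cfb, factor B, gave log2 levels of 11.27, 11.03 and 11.64 in WT1-high cells, 11.20, 11.28 and 11.71 in WT1-intermediate cells, and 4.65, 4.59 and 4.33 in WT1-negative cells. The in vivo groups overlapped, with a log2 difference of -0.08 and an interval from -0.52 to 0.35 (limma adjusted p = 0.88). In WT1-negative cells Cfb was near background and detected on 2 of 3 arrays. The log2 difference from WT1-negative cells was 6.79 for WT1-high (SE 0.20, limma adjusted p = 8.7e-10) and 6.87 for WT1-intermediate cells (limma adjusted p = 1.2e-09). Cfb and C2 are consecutive coding genes of chromosome 17.

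C3ar1, the receptor for the C3a fragment, lay at 4.72, 4.23 and 4.23 in WT1-high cells, 4.20, 4.29 and 4.23 in WT1-intermediate cells, and 4.29, 4.26 and 4.26 in WT1-negative cells. It was detected on 1 WT1-high array and on no other array. Its level was therefore not well above background, and no difference was tested.

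**Figure D2:**
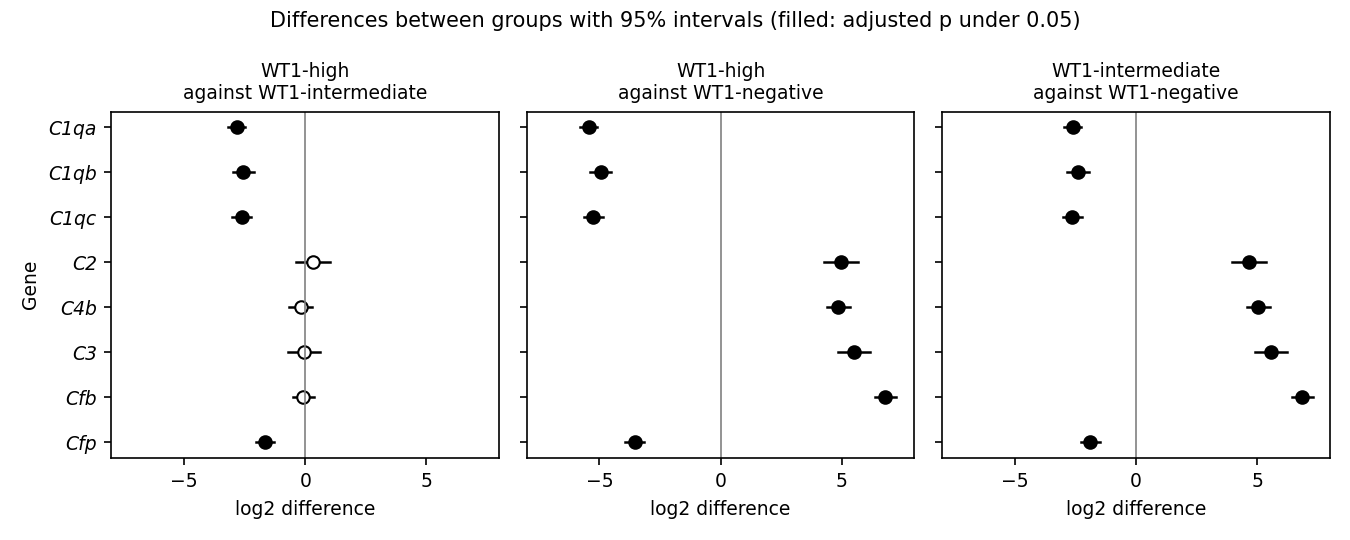
Log2 difference (horizontal axis) of the 8 tested genes in each of the 3 comparisons, with limma's 95% interval as a line and filled points for adjusted p under 0.05. Between the in vivo groups the 4 filled genes are C1qa, C1qb, C1qc and Cfp, all below 0, and against WT1-negative cells all 8 are filled, 4 on each side.

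Markers of other cells also moved with C2, C4b, C3 and Cfb. All 11 mesothelial markers were called higher in both in vivo groups than in WT1-negative cells, with summed levels of 35856 to 40173, 20772 to 28732 and 396 to 490, in the order WT1-high, WT1-intermediate, WT1-negative. Of 12 hepatocyte markers, 8 were tested and all 8 were called higher in WT1-high than in WT1-negative cells, and 6 in WT1-intermediate cells, with summed levels of 7213 to 10709, 4450 to 6769 and 3704 to 5070. Trf was the brightest gene of the hepatocyte list on every array and weighs most in its sums. It differed by -0.18 between WT1-intermediate and WT1-negative cells (limma adjusted p = 0.53), whereas Hp and Ttr differed by 3.67 and 3.63. The hepatocyte genes Alb, Fgb and Tat were detected on no array. Of 6 tested T and NK cell markers, 6 were called higher in WT1-high and 5 in WT1-intermediate than in the cultured cells, with sums of 572 to 898, 525 to 968 and 160 to 168. The stellate cell list summed to 14248 to 15738, 15520 to 20230 and 3486 to 5230, but its 9 tested genes split. Against WT1-negative cells 4 were called higher and 3 lower from WT1-high cells (median log2 difference 0.18). From WT1-intermediate cells 4 were called higher and 2 lower (median 0.34). MHC class II genes, which present antigen, summed to 11738 to 15110, 10583 to 16857 and 631 to 916. The summed level of C2, C3, C4b and Cfb was 21853 to 25387, 20298 to 25415 and 568 to 703. The part of these markers in the result was not tested.

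**Figure D3:**
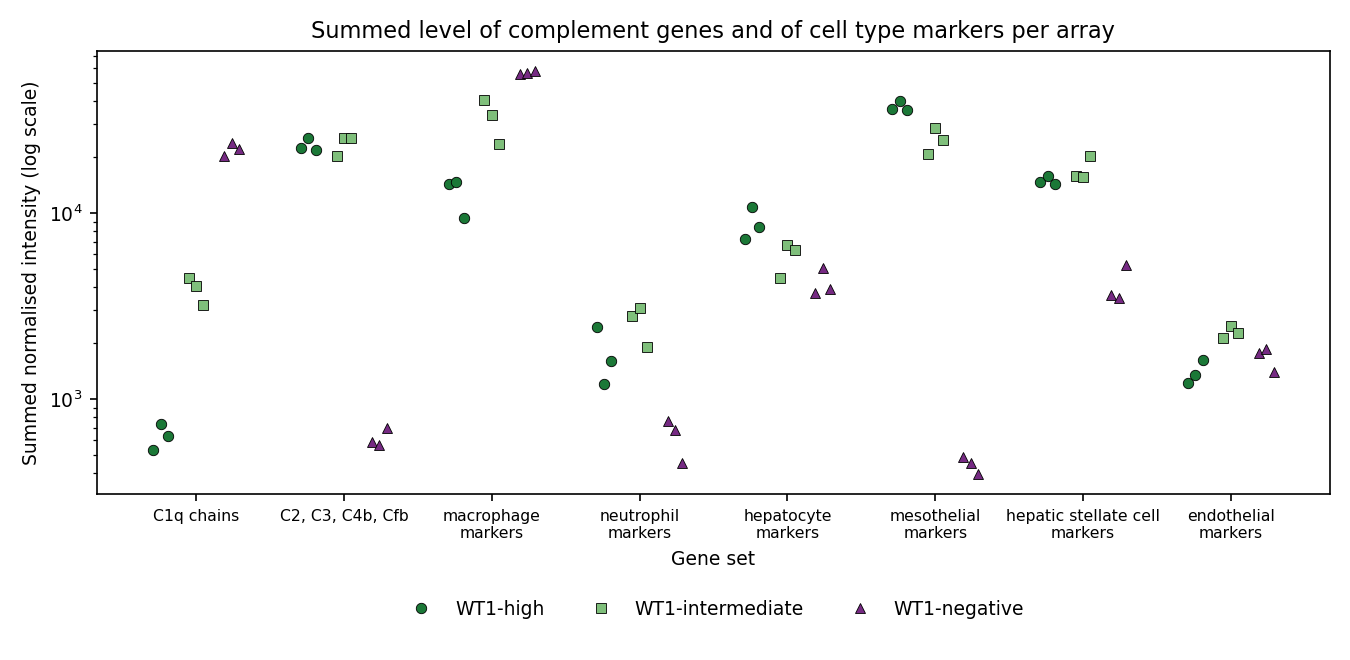
Summed normalised intensity per array (vertical axis, log scale) of the C1q chains, of C2, C3, C4b and Cfb, and of 6 lists of cell type markers, 1 point per array. The C1q sum and the macrophage sum both rise from WT1-high to WT1-negative, and the sum of C2, C3, C4b and Cfb and the mesothelial sum both lie lowest in WT1-negative cells.

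The rest of the complement system was followed in 46 further genes, of which 44 were on the array and 26 were tested. By the brightest probe 9 were detected on no array, although another probe of Masp1, which is among them, was detected on 1 WT1-high array. Between the in vivo groups limma called 5 lower and 0 higher, with a median log2 difference of 0.13, and at an unadjusted p under 0.05 there were 7 lower and 4 higher. Over all genes 2.87% were called lower and 0.962% higher there. Against WT1-negative cells 9 were called higher and 6 lower from WT1-high cells (median 0.32), and 11 higher and 9 lower from WT1-intermediate cells (median 0.48), where the medians over all genes were -0.07 and -0.10. Such calls were common among all genes, at 27.6% higher and 32.1% lower from WT1-high cells. From WT1-intermediate cells the shares were 25.9% and 32%.

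Among the initiators, Fcna, the lectin ficolin A, ran in the order of C1q, with means of 7.03, 9.29 and 11.75 from WT1-high to WT1-negative cells, and the WT1-high level was called lower than the WT1-intermediate level (log2 difference -2.26, limma adjusted p = 0.0065). That call was lost without the detection filter (limma adjusted p = 0.059). C1s, a protease of the classical pathway, ran the other way, with means of 8.88, 8.03 and 5.37. Between the in vivo groups it differed by 0.84 with a limma adjusted p of 0.16, and the p was 0.019 with the replicate number as a fixed block. C4a was at 12.51, 12.48 and 7.53 by its brightest probe. Another C4a probe ran alike (12.50, 12.56 and 6.83), and the remaining one was detected on no array. Whether C4a probes also bind C4b transcripts was not tested. Colec11, another lectin, was at 7.53 and 7.28 in vivo and detected on no WT1-negative array, at least 7.63-fold and 6.38-fold higher.

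Of the terminal components, which build the membrane pore, C7 was called lower in the WT1-high than the WT1-intermediate group (means 4.62 and 6.42, log2 difference -1.80, limma adjusted p = 0.0026). It was detected on no WT1-negative array, and WT1-intermediate cells were at least 3.51-fold higher. The WT1-high C7 levels (4.55, 4.51 and 4.80) lay near the detection limits of those arrays (4.48, 4.5 and 4.65). Over the settings tried, the log2 difference between the in vivo groups ran from -2.01 to -0.63. Another C7 probe did not pass the detection filter.

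Among 10 tested regulators, 0 were called between the in vivo groups in the limma fit and 1, Cd55, had an unadjusted p under 0.05, whereas 6 were called higher in WT1-high than in WT1-negative cells. Over all genes 27.6% were called higher in that last comparison. Serping1, the C1 inhibitor, had means of 13.18, 12.87 and 8.50. Cd55, which speeds the decay of convertases on cell surfaces, had means of 10.31, 9.46 and 4.56. Between the in vivo groups Cd55 differed by 0.85 with a limma adjusted p of 0.066, and the p was 0.0048 with the replicate number as a fixed block. In the other direction Cd59a, an inhibitor of the pore, had a log2 difference of -0.98 between WT1-intermediate and WT1-negative cells and was called lower.

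Of the receptors, Itgb2, Vsig4 and Cd93 were called lower in the WT1-high than the WT1-intermediate group, with log2 differences of -1.75, -2.05 and -1.63 (limma adjusted p = 0.0029, 0.033 and 0.021). Itgb2 is a chain of complement receptor 3, Vsig4 a receptor of resident macrophages for C3 fragments, and Cd93 a cell surface lectin of endothelial and myeloid cells. Cd93 ran in the order of C1q, with means of 6.82, 8.45 and 11.53 from WT1-high to WT1-negative cells. Itgb2 (5.53, 7.27 and 6.35) and Vsig4 (6.80, 8.85 and 7.39) did not, and were highest in WT1-intermediate cells. They were called higher there than in WT1-negative cells (limma adjusted p = 0.0062 and 0.017). The calls of Vsig4 and Cd93 were lost under several other settings, and that of Itgb2 under median scaling over all gene probes (limma adjusted p = 0.054). Another Cd93 probe was not called between the in vivo groups (log2 difference -1.37, limma adjusted p = 0.052). C5ar1, the receptor for C5a, and Itgam, the partner chain of Itgb2, were at least 6.80-fold and 6.58-fold lower in WT1-high than in WT1-negative cells. C1qbp, a mitochondrial protein named for its binding of C1q, had a log2 difference of -0.92 in that comparison.

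**Figure D4:**
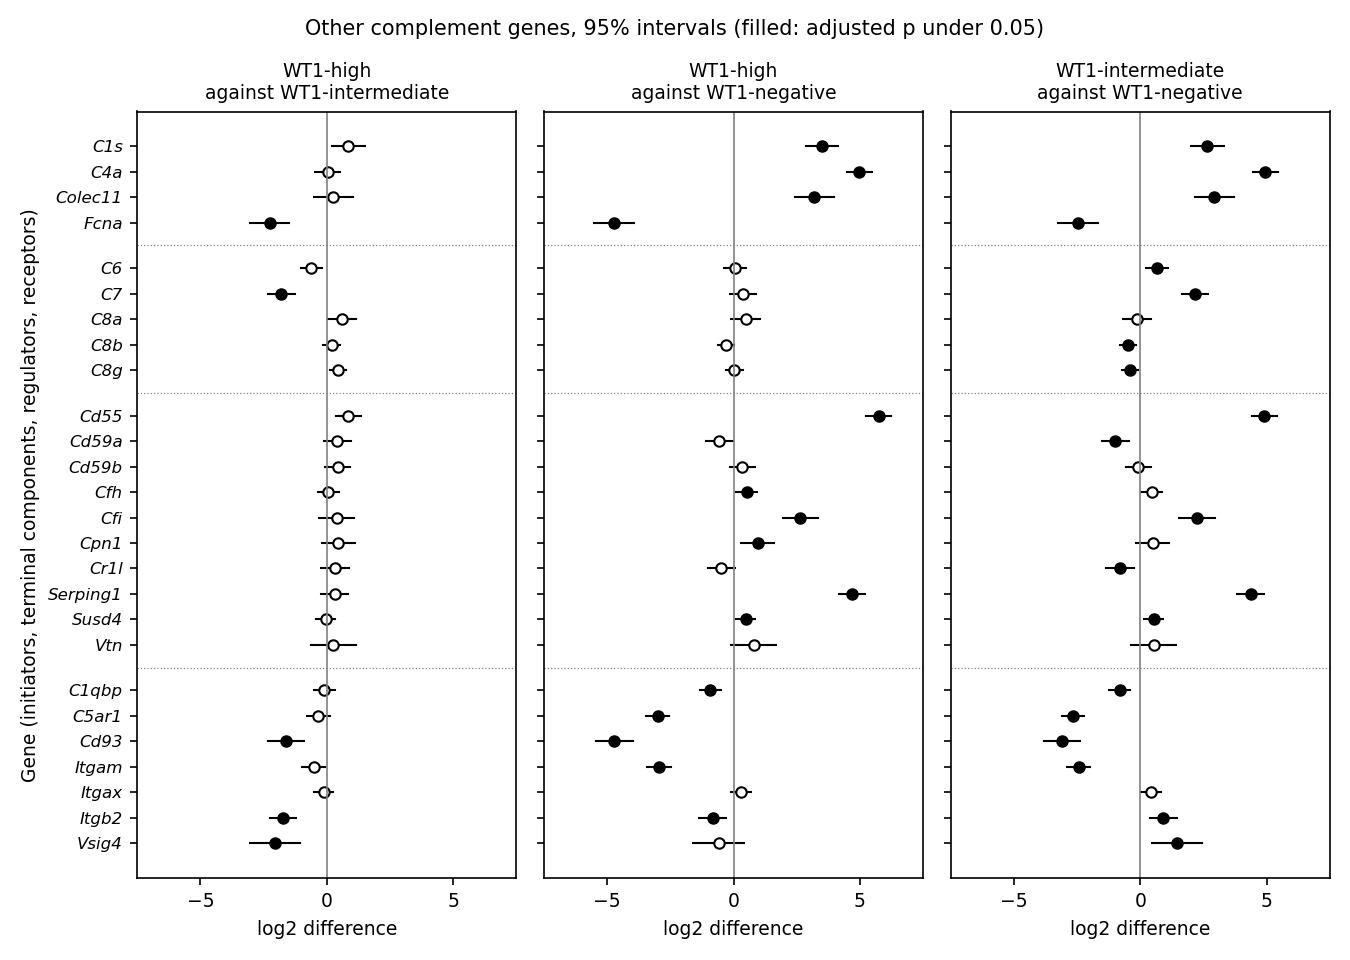
Log2 difference (horizontal axis) of the 26 other tested complement genes in the 3 comparisons, with limma's 95% interval as a line and filled points for adjusted p under 0.05, and dotted lines between initiators, terminal components, regulators and receptors. Between the in vivo groups the filled genes are Fcna, C7, Cd93, Itgb2 and Vsig4, all below 0.

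By the root mean square difference of centred log2 levels over the 9 arrays, the genes outside the complement lists most like C1qb were OTTMUSG00000000971 (0.222), Fcgr3 (0.296) and Ccl6 (0.325). Those most like Cfp were Kcnab2 (0.19), Sdc3 (0.198) and Fcgr4 (0.222). For C3 they were LOC100048295 (0.316), Dsg2 (0.379) and Aldh1a1 (0.391), and for Cfb they were Gpm6a (0.317), Msln (0.347) and H2-Aa (0.36). Gpm6a and Msln are among the mesothelial markers and H2-Aa among the MHC class II genes. The genes most like C2 were Eln (0.195), Myo5b (0.228) and Cdh3 (0.295), and those most like C4b were LOC100045680 (0.175), Hspa1a (0.193) and Ces3 (0.196). None of the genes named for C2, C4b or C3 is on a marker list used here. C1qa and C1qc had the same nearest genes as C1qb.

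RefSeq promoters were given for 5 of the 9 genes, and 1 of each pattern is shown, as the 250 bases before the start site in GRCm38.p6. Both strands were searched for GAGGAAGT (PU.1) and TTGCNNAA (C/EBP), and capitals mark the matches.
C1qc, chr4:136892915-136893164, minus strand: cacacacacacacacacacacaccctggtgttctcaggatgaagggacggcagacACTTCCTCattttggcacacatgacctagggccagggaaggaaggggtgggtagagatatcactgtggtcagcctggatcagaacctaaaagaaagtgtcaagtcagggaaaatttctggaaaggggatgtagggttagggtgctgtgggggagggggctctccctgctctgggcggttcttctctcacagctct
C3, chr17:57228137-57228386, minus strand: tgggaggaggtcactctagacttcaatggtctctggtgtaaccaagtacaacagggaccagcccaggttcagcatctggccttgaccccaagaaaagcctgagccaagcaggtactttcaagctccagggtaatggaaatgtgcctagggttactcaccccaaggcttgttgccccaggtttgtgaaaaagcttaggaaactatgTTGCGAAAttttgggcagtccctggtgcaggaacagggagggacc
C1qc held a PU.1 match 195 bases before the start site, a motif found in 2.44% of 32851 promoters of this length, and C3 held a C/EBP match at 45 bases, a motif found in 9.56%. The other 3 promoters, those of C1qb, Cfp and C3ar1, held neither. These matches are a description of letters.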

How the data were processed

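Intensities of 45281 probes were deposited per array on the linear scale as the authors' BeadStudio probe profiles, neither background corrected nor normalised, each with a deposited detection p-value. They were corrected with 936 negative controls, quantile normalised with an offset of 16 and put on the log2 scale (neqc, limma 3.58.1, R 4.3.3). A probe entered the tests if its detection p was under 0.05 on 3 or more arrays. A linear model with 3 groups was fitted to all 9 arrays (6 residual degrees of freedom), and its contrasts were tested with limma's moderated statistic (two-sided), with Benjamini-Hochberg adjustment over the 20573 probes kept. A joined table repeated these intensities exactly and was set aside. A gene with several probes was counted by its brightest. "At least" marks a fold against the background limit of a group in which the probe was not detected. The precision is limited by the number of arrays. The steps were tested on simulated data.

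Named genes were all 9 genes, every other complement gene called between the in vivo groups, and the 5 largest rises and falls among called, non-overlapping complement genes in each comparison with WT1-negative cells; marker genes, Rhot2, and Cd55 and C1s between the in vivo groups, were named where described. Likeness was computed among probes with a range of at least 1 log2 unit. Members and lists were chosen with earlier results of these data known. Of 152 list entries, 141 were found under their symbol, 7 under an older one, and 4 were not analysed here. By the study's account 3 animals gave the in vivo samples. Deviations from group means correlated at 0.35, 0.34 and 0.47 in arrays with like numbers (29 with 30) and at -0.39 to 0.03 in others, so the numbers were taken to pair the arrays. The in vivo column numbered 29 in the WT1-intermediate group was taken as replicate 30, whose values it equalled in the joined table. By the study's methods, replicates were separate animals in vivo and separate cell isolations in vitro. Alternatives covered background correction, offset, normalisation, detection filter, array weights, blocks, the compared groups alone and leaving out each array.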

Additional observations from a re-analysis of the deposited data

How the results depend on the processing

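Over the settings tried, the tested genes of the 9 gave 467 alternative values, of which 466 kept their side of the threshold, with 0 called values reversed, and 1 lost its call, Cfp between WT1-high and WT1-intermediate cells under median scaling over all gene probes (log2 difference -1.03, limma adjusted p = 0.055). That scaling was planned; after this loss was seen, median scaling over the tested probes was added, and there Cfp stayed called (-1.52, limma adjusted p = 0.0013). The planned scaling moved the median of all probes to 0.45 for WT1-high against WT1-intermediate and to -0.44 for WT1-intermediate against WT1-negative cells, and the added one to -0.04 and -0.01; the cause was not tested. The C1q differences between the in vivo groups stayed called under every setting run, at -1.94 at the smallest. Other complement genes called lower between the in vivo groups numbered 2 without the detection filter, 3 without background correction, 2 under the planned median scaling and 3 with the compared groups alone. Those called higher numbered 4 under the planned and 2 under the added median scaling, 1 under cyclic loess, 1 with a random and 2 with a fixed replicate block, and 0 to 2 when single arrays were left out (2, C8a and Cd55, without WT1-high replicate 1). With detection required on all arrays, those called higher than WT1-negative cells numbered 4 in the WT1-high and 5 in the WT1-intermediate comparison, and under the planned scaling 7 for the latter. All probes called between the in vivo groups numbered 730, with 335 without the filter, 2684 and 1040 under the planned and added median scaling, 1796 and 1760 with a random and a fixed replicate block, and 324 to 866 when single arrays were left out. The block changed no call of the 9 genes. Of 471 alternative values of the other named genes, 454 kept their call and 17 lost it, 9 of them for Vsig4, 6 for Cd93, 1 for Fcna (no detection filter) and 1 for Itgb2 (planned median scaling). Signal near background limits Cfb, C3ar1 and the fainter C4b probes in WT1-negative cells, and C7 in WT1-high cells.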
